A study of Mus musculus with 10 samples.

Results

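Transforming growth factor beta (TGF-beta) and bone morphogenetic protein (BMP) pathway genes were followed in whole lungs of mouse pups with 1 functional copy of Dll4, which encodes a Notch ligand of endothelial cells. The set holds 48 genes of the 35275 listed in the deposited gene table, chosen by name as ligands, latent binding proteins, receptors, SMAD proteins, ID proteins and secreted inhibitors. All 48 were found in the table and all are annotated as protein coding. Lungs of Dll4+/- pups, in which 1 Dll4 allele is replaced by a lacZ reporter in every cell, were compared with lungs of Dll4+/+ pups that carry both alleles. All pups were of the outbred CD1 strain and were taken at postnatal day 6 (P6), during alveolar development. RNA-Seq of poly-A RNA gave 8 libraries with values, Dll4+/- replicates 1 to 4 and Dll4+/+ replicates 3 to 6, each genotype with 2 pups labelled male and 2 labelled female. Values are FPKM, that is, fragments scaled to exon length and to the mapped fragments of the library, and are given in order of replicate number.

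Ligands of this superfamily bind pairs of type I and type II serine-threonine kinase receptors at the cell surface. TGF-beta and activin receptors phosphorylate SMAD2 and SMAD3, BMP receptors phosphorylate SMAD1, SMAD5 and SMAD9, and both groups share SMAD4 on the way to the nucleus. In endothelial cells the type I receptor ALK1, encoded by Acvrl1, and the coreceptor endoglin, encoded by Eng, respond to circulating BMPs, and Id1, Id2, Id3, Smad6 and Smad7 are widely used as transcriptional readouts. In the developing lung the pathway is known for roles in branching, septation, matrix deposition and vascular maturation.

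The promoters of 4 members are shown because Sost had the largest log2 fold change of the 43 members tested, and Id3, Id2 and Smad6 are standard readouts of BMP signalling. Each window runs from 250 bases before the RefSeq start to 10 bases after it, 5′ to 3′ on the strand of the gene (build GRCm38.p6). Capitals mark 3 sets of letters: the SMAD box GTCTG or its reverse complement CAGAC, the palindrome GTCTAGAC formed by a pair of half-boxes, and the GC-rich GGCGCC, all searched on both strands with no overlap between the 3. The windows lie at chr11:101967006-101967265, minus strand, at chr4:136143572-136143831, plus strand, at chr12:25096083-25096342, minus strand, and at chr9:64022050-64022309, minus strand.
Sost: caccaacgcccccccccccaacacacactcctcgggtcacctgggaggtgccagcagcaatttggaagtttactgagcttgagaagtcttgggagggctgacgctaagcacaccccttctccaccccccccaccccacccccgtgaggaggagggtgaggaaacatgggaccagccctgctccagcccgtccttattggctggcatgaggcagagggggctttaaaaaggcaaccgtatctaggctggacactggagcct
Id3: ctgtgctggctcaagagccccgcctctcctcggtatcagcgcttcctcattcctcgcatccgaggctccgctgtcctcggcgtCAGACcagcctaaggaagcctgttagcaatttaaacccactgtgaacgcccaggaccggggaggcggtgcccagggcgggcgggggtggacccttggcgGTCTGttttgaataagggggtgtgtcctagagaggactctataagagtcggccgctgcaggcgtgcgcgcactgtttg
Id2: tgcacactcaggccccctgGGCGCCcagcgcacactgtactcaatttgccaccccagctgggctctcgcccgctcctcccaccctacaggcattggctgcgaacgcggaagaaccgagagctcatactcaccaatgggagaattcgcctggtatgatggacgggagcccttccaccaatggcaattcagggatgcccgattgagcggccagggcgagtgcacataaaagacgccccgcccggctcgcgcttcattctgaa
Smad6: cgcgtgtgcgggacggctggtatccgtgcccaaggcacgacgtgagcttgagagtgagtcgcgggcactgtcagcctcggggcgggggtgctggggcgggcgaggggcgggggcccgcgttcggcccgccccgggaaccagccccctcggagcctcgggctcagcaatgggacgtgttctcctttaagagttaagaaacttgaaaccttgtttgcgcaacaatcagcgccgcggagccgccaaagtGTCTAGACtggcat
The Sost window held none of the 3, Id3 held a CAGAC that begins 167 bases and a GTCTG that begins 68 bases before the start, Id2 held a GGCGCC that begins 231 bases before it, and Smad6 held GTCTAGAC across its start. Of 35 members with a RefSeq window, 16 (45.7%) held a SMAD box, against 44.0% of all 32851 windows of this length. For each set of letters a member was counted if any of its windows held a match, while the background counts single windows. A member with more than 1 window therefore had more chances, and the shares are not measured alike. GGCGCC stood in 10 of the 35 members (28.6%), against 9.96% of all windows, and GTCTAGAC in 1 member, against 0.177% of all windows. A site of RBPJ, the DNA-binding partner of Notch (GTGGGAA or TTCCCAC), stood in 3 members (8.57%), Bmpr2, Smad5 and Smad9, against 5.58% of all windows. These are matches of letters, and no binding was measured.

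Dll4 itself was measured first as a check of the genotype labels. Its level was 11.4, 15.6, 20.7 and 11.6 FPKM in Dll4+/- lungs, against 22.7, 25.8, 30.7 and 31.3 FPKM in Dll4+/+ lungs, so that the groups did not overlap and the Dll4+/- mean was 0.536 of the Dll4+/+ mean. Depth ran from 17201662 to 22927840 recovered fragments per library. Sftpc, which marks alveolar type II cells, lay between 11181 and 36845 FPKM in Dll4+/- lungs and between 17133 and 26521 FPKM in Dll4+/+ lungs. The Dll4+/- libraries 1 and 4 stood apart from the rest in sums of marker genes. Dll4+/+ replicate 3 also often held the highest or the lowest value of a gene, as given with the spread below. The summed FPKM of 10 cell cycle genes was 42.0 in Dll4+/- replicate 1, against 249.9 to 351 in the other 7 libraries, and that of 6 neutrophil genes was 1390 in that library, against 89.1 to 192 elsewhere. Sums of 8 glucocorticoid-induced genes were 1077 in Dll4+/- replicate 1 and 823 in Dll4+/- replicate 4, against 301 to 433 in the other 6. Sums of 10 pan-endothelial markers were 1805 in Dll4+/- replicate 1 and 1129 in Dll4+/- replicate 4, against 1433 to 1656 in the other 6. Dll4+/- replicate 2, labelled female, had 0.273 FPKM of Xist and 20.3 FPKM of Ddx3y, against its label. In whole lung, fewer cells of a type and less RNA per cell cannot be told apart.

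The comparison of Dll4+/- with Dll4+/+ lungs asks how pathway transcripts respond to loss of 1 Dll4 copy. In most members the levels of both genotypes overlapped, and 2 members stood apart. Sost, a secreted inhibitor, had higher levels in each of 4 Dll4+/- libraries than in any Dll4+/+ library, and Id1, a BMP target, had lower levels in each of the 4. Neither passed the threshold after adjustment. Of the 48 members, 43 reached 1 FPKM in 4 or more libraries and were tested with limma on log2(FPKM + 1) together with all other genes that met this filter, 13610 in all. An adjusted p (Benjamini-Hochberg) under 0.05 was reached by 0 of the 43 members and by 0 of 13610 genes (0%), while 457 genes lay under an unadjusted p of 0.05. A voom fit on recovered fragment counts gave 0 genes after adjustment and 411 under an unadjusted p of 0.05. Adjusted p of the members ran from 0.811 to 0.996 (limma).

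Under an unadjusted p of 0.05, 1 of the 43 members was higher, against 1.45% of all genes tested, and 1 was lower, against 1.91% of all genes. Groups that did not overlap were also seen for 1 member in the higher direction, against 1.43% of all genes, and for 1 in the lower direction, against 1.69%. A single gene makes 2.33% of 43, so these counts are near the background. Of the 43 log2 fold changes, 21 were above 0 and 22 below, and their median was -0.0033, against a median of -0.020 over all genes tested. All but 2 members, Sost and Fstl3, lay within 0.5 of 0 on this scale, with a median SE of 0.17. The scale of log2(FPKM + 1) understates differences of genes with low FPKM.

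**Figure D1:**
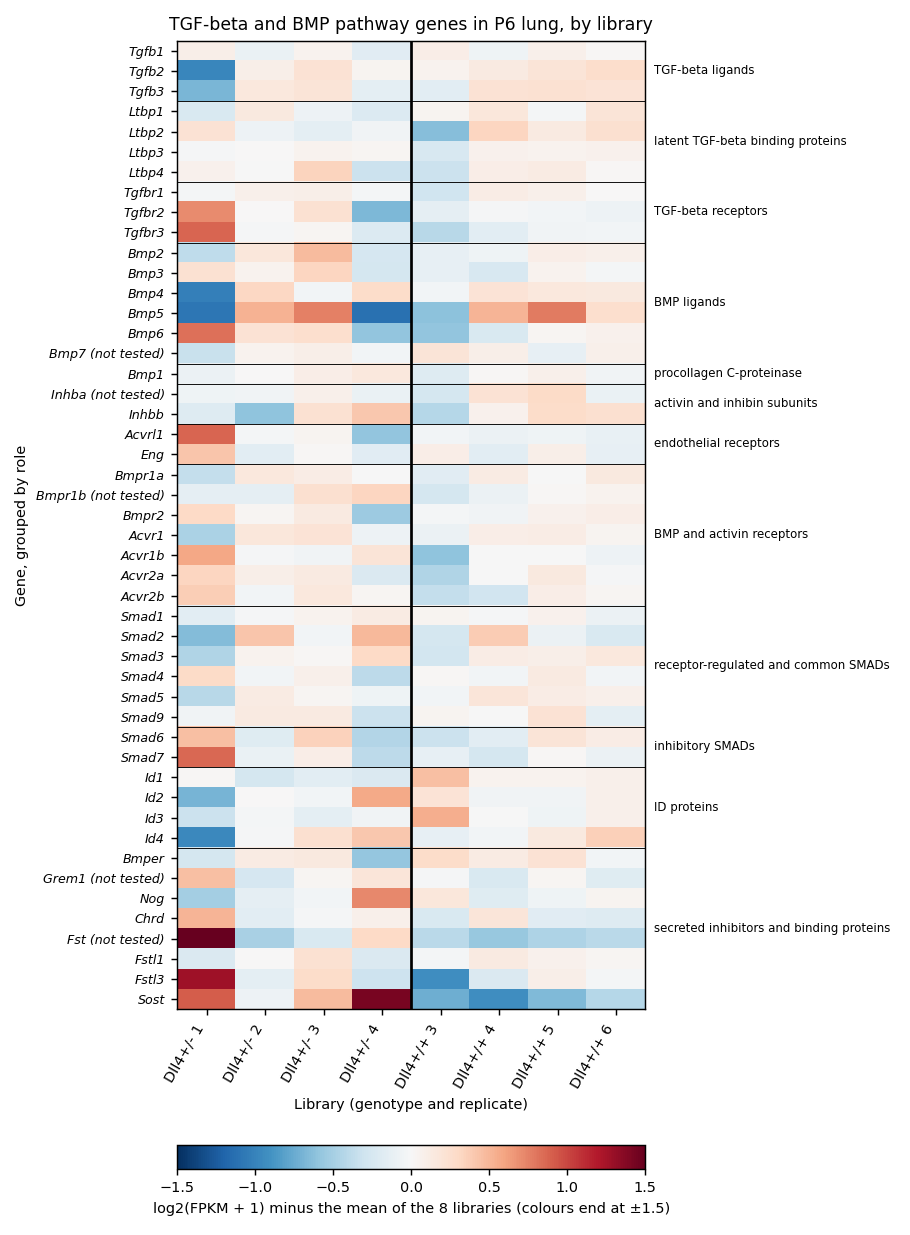
Levels of the 48 members in each library. Rows are genes grouped by role, columns are the 4 Dll4+/- and then the 4 Dll4+/+ libraries, and the colour is log2(FPKM + 1) minus the mean of the 8 libraries. Most of the strongest colours stand in the columns of Dll4+/- replicates 1 and 4, and the bottom row, Sost, is the only one of the 43 tested rows in which all Dll4+/- libraries lie above all Dll4+/+ libraries.

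The secreted inhibitors and binding proteins included the largest log2 fold change among the tested members, that of Sost. Sost encodes sclerostin, known mainly as an osteocyte product that binds Wnt coreceptors and was first grouped with the BMP antagonists (ENSMUSG00000001494, chr11:101962458-101967015, minus strand). It had 4.05, 1.55, 2.75 and 6.23 FPKM in Dll4+/- lungs, against 0.624, 0.412, 0.703 and 0.999 FPKM in Dll4+/+ lungs. Every Dll4+/- library was above every Dll4+/+ library, with Dll4+/- replicates 1 and 4 highest. The means were 3.64 ± 2.003 FPKM in Dll4+/- lungs and 0.685 ± 0.243 FPKM in Dll4+/+ lungs (± SD, 4 libraries each), a ratio of 5.32 (untested Fst, described with its relatives, had a ratio of 6.60), and the log2 fold change was 1.37 ± 0.29 (limma, unadjusted p = 0.00093, adjusted p = 0.811). The two-sided exact permutation test gave p = 0.0286, the smallest that 4 against 4 libraries can give. These levels rested on 16 to 295 fragments per library. Without Dll4+/- replicates 1 and 4 the log2 fold change was 0.89, with the groups still apart.

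Bone and cartilage markers were read beside Sost. Of 8 bone and osteocyte markers, 4 averaged 1 FPKM or more. The sum of the 8 was 93.7 to 98.1% Col1a1, a collagen gene that lung fibroblasts also express, and the other 7 summed to 4.25 to 13.4 FPKM in Dll4+/- lungs, against 11.98 to 16.7 FPKM in Dll4+/+ lungs, so that the groups overlapped. Phex was the largest of these 7 in every library. It had 2.54, 10.7, 8.80 and 3.65 FPKM in Dll4+/- lungs, against 9.97, 11.3, 9.77 and 9.08 FPKM in Dll4+/+ lungs. Alpl (2.21 FPKM) and Dmp1 were highest in Dll4+/- replicate 4, where Sost was also highest. Phex, Ibsp, Bglap, Sp7 and Mepe were highest in other libraries. Among osteocyte genes, Dmp1 had 0, 0, 0.0748 and 1.19 FPKM in Dll4+/- lungs, against 0.0609, 0.0578, 0.147 and 0.0730 FPKM in Dll4+/+ lungs, and Mepe was at or near 0 in all 8 libraries, with 0.0346 FPKM at most. The sum of 7 cartilage markers was 16.5 FPKM in Dll4+/- replicate 4, against 5.23 to 11.5 FPKM in the other 7 libraries. The part of these cells in the level of Sost was not tested.

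Follistatin and its relatives bind activins. Fst, which encodes follistatin, and Fstl3, which encodes a follistatin-like activin antagonist, fell outside the rule for full values and were chosen after their values were seen. Fst was under the filter, with 8.2, 0.372, 0.640 and 1.36 FPKM in Dll4+/- lungs, against 0.456, 0.296, 0.398 and 0.452 FPKM in Dll4+/+ lungs. It was high in Dll4+/- replicate 1, on 380 fragments, while the groups overlapped through Dll4+/- replicate 2 (two-sided exact permutation p = 0.114). Fstl3 had 16.4, 5.499, 7.71 and 4.77 FPKM in Dll4+/- lungs, against 2.75, 5.17, 6.66 and 6.03 FPKM in Dll4+/+ lungs, with Dll4+/- replicate 1 again far above the rest and a log2 fold change of 0.55 ± 0.35. Without Dll4+/- replicate 1 that value was 0.21, and without Dll4+/+ replicate 3 it was 0.33.

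Fstl1, a secreted glycoprotein of mesenchymal cells required for lung development in mice, was the second most abundant member. Its levels were 193, 227, 265 and 194 FPKM in Dll4+/- lungs, against 221, 248, 236 and 231 FPKM in Dll4+/+ lungs, and its log2 fold change of -0.10 ± 0.14 was smaller than its SE. Bmper, an extracellular binding protein of BMPs made by endothelial cells, had 14.4, 19.1, 19.4 and 11.3 FPKM in Dll4+/- lungs, against 21.4, 19.1, 20.5 and 16.9 FPKM in Dll4+/+ lungs. Only Dll4+/- replicates 1 and 4 were below every Dll4+/+ library, the log2 fold change was -0.29 ± 0.17, and it was -0.011 without these 2 libraries. Noggin, encoded by Nog, sequesters BMPs and had 6.81, 9.15, 9.77 and 17.3 FPKM in Dll4+/- lungs, against 11.5, 8.82, 9.603 and 10.5 FPKM in Dll4+/+ lungs. Dll4+/- replicate 4 was the highest library and Dll4+/- replicate 1 the lowest, and the means were 10.8 ± 4.53 FPKM in Dll4+/- lungs and 10.1 ± 1.15 FPKM in Dll4+/+ lungs (± SD, 4 libraries each). Chrd, which encodes chordin, ranged from 1.28 to 2.82 FPKM over the 8 libraries. Grem1, which encodes gremlin, was under the filter with 0.924 FPKM in Dll4+/- replicate 1 and 0.187 to 0.599 FPKM in the other 7 libraries.

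**Figure D2:**
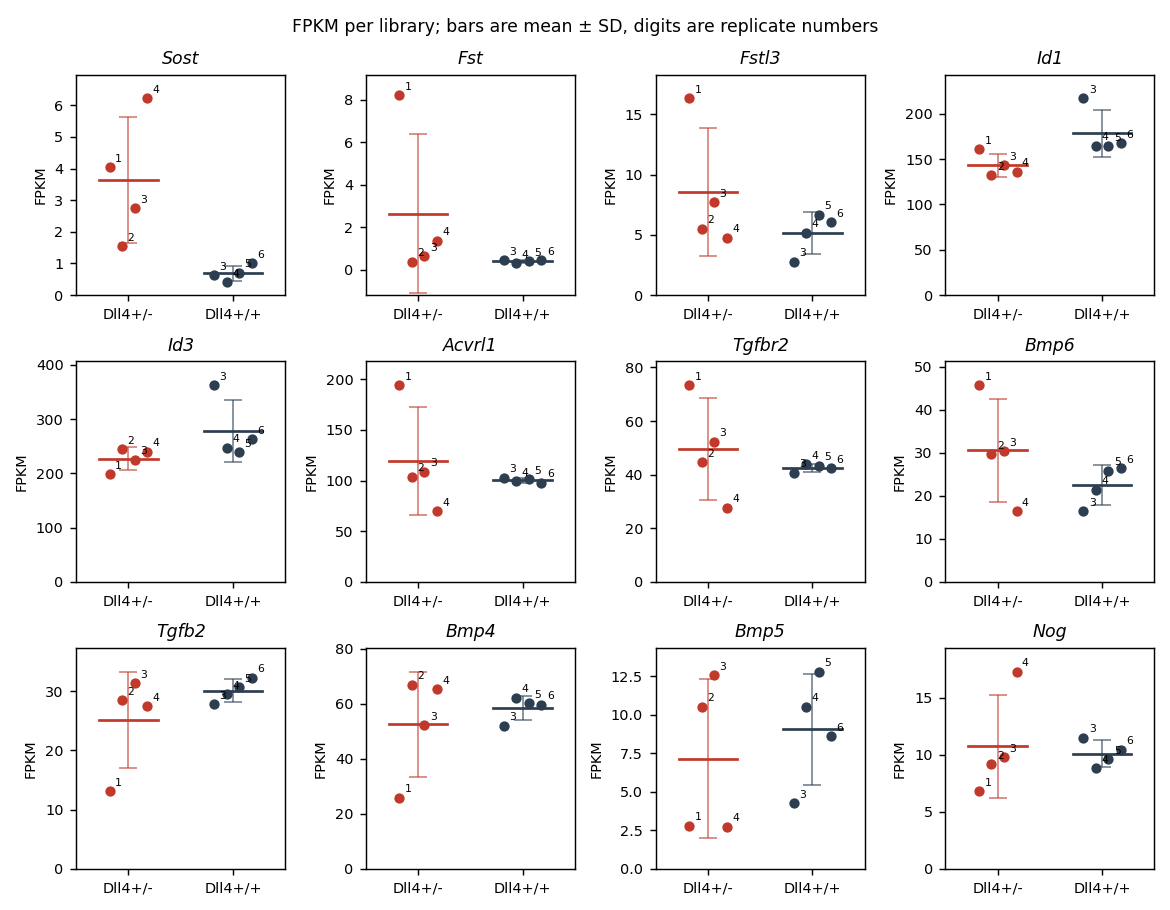
FPKM of 12 members in each library. Points are libraries labelled by replicate number, Dll4+/- in red to the left of Dll4+/+ in dark blue, with horizontal lines for means and bars for the SD (n = 4 each). Sost and Id1 are the 2 panels without overlap, and in Fst, Fstl3, Id3, Acvrl1, Tgfbr2, Bmp6, Tgfb2, Bmp4 and Nog the Dll4+/- replicate 1 point lies outside the range of the other 7.

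The ID proteins, which hold basic helix-loop-helix factors away from DNA and are direct targets of BMP SMADs, had log2 fold changes below 0 in 4 of 4 cases, and Id1 was under an unadjusted p of 0.05. These signs held with median ratio scaling, while Id2 and Id4 lay at 0.14 and 0.12 without Dll4+/- replicate 1. Id1 had 161, 133, 143 and 136 FPKM in Dll4+/- lungs, against 217, 165, 165 and 167 FPKM in Dll4+/+ lungs. The highest Dll4+/- library, replicate 1, lay just under the lowest Dll4+/+ library, and Dll4+/+ replicate 3 stood above the others. The means were 143 ± 12.5 FPKM in Dll4+/- lungs and 179 ± 25.9 FPKM in Dll4+/+ lungs (± SD, 4 libraries each), and the log2 fold change was -0.31 ± 0.13 (limma, unadjusted p = 0.0435, adjusted p = 0.811; two-sided exact permutation p = 0.0286, the smallest possible). In limma fits that left out 1 library (the exact permutation test was run on all 8 only), the unadjusted call held without Dll4+/- replicate 1 (p = 0.0198) and was lost on leaving out any one of the other 7 libraries, with p from 0.0552 to 0.11. With scaling by median ratios the unadjusted p was 0.0901 and the groups overlapped, while the log2 fold change kept its sign in all alternatives, between -0.44 and -0.21.

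Id3 was the most abundant of the 48 members. It had 199, 245, 225 and 240.2 FPKM in Dll4+/- lungs, against 363, 248, 239 and 263 FPKM in Dll4+/+ lungs, and its log2 fold change was -0.28 ± 0.16, or -0.14 without Dll4+/+ replicate 3. Dll4+/+ replicate 3 was far above the rest, and the other 3 Dll4+/+ libraries overlapped with the Dll4+/- libraries. Id2 had 55.9, 91.9, 88.96 and 136 FPKM in Dll4+/- lungs, against 105, 87.9, 88.1 and 96.6 FPKM in Dll4+/+ lungs, lowest in Dll4+/- replicate 1 and highest in Dll4+/- replicate 4, with means of 93.2 ± 32.9 FPKM in Dll4+/- lungs and 94.5 ± 8.34 FPKM in Dll4+/+ lungs (± SD, 4 libraries each). Id4 ranged from 6.47 FPKM in Dll4+/- replicate 1 to 18.4 FPKM in Dll4+/- replicate 4, with Dll4+/+ libraries between 12.4 and 17.8 FPKM. As a percentage of the summed FPKM of 10 pan-endothelial markers, Id1 was 8.83 to 12.1% in Dll4+/- lungs, against 10.7 to 13.1% in Dll4+/+ lungs, so that the groups overlapped on this scale (two-sided exact permutation p = 0.114).

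The TGF-beta ligands had log2 fold changes below 0 in 3 of 3 cases, also with median ratio scaling, and 0 under an unadjusted p of 0.05. Tgfb1, which encodes the form best known from immune and endothelial cells, had 48.7, 42.8, 47.7 and 40.7 FPKM in Dll4+/- lungs, against 48.99, 43.8, 48.2 and 46.2 FPKM in Dll4+/+ lungs. These ranges overlapped. Tgfb2 had 13.1, 28.5, 31.3 and 27.5 FPKM in Dll4+/- lungs, against 27.7, 29.5, 30.7 and 32.3 FPKM in Dll4+/+ lungs, and Tgfb3 had 18.9, 34.8, 35.6 and 27.99 FPKM in Dll4+/- lungs, against 27.8, 36.4, 36.6 and 35.96 FPKM in Dll4+/+ lungs. For both, Dll4+/- replicate 1 was the lowest library, and Tgfb2 in the other 3 Dll4+/- libraries fell between 27.5 and 31.3 FPKM, beside the Dll4+/+ range. The log2 fold changes were -0.32 ± 0.24 for Tgfb2 and -0.25 ± 0.20 for Tgfb3, and without Dll4+/- replicates 1 and 4 they were -0.0072 and 0.050.

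Latent TGF-beta binding proteins tether the inactive ligands to the matrix, and Ltbp4 also guides elastic fibre assembly. Their 4 log2 fold changes lay between -0.19 for Ltbp1 and 0.04 for Ltbp4, and 0 of 4 passed an unadjusted p of 0.05. Ltbp2 had 148, 121, 115 and 122 FPKM in Dll4+/- lungs, against 81.2, 159, 139 and 150.4 FPKM in Dll4+/+ lungs. Dll4+/+ replicate 3 was the lowest library here, and the Dll4+/- libraries sat inside the Dll4+/+ range. Ltbp3 had 88.2, 89.6, 92.5 and 91.4 FPKM in Dll4+/- lungs, against 75.5, 93.5, 92.9 and 93.5 FPKM in Dll4+/+ lungs, and Ltbp4 had 109, 104, 132 and 83.7 FPKM in Dll4+/- lungs, against 83.8, 112, 114 and 106 FPKM in Dll4+/+ lungs. In Ltbp3 all 4 Dll4+/- libraries lay within 4.37 FPKM of each other, again inside the Dll4+/+ range.

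TGF-beta receptors had 3 of 3 log2 fold changes above 0 and 0 under an unadjusted p of 0.05. Tgfbr1, the type I receptor ALK5, had 8.38, 9.14, 9.24 and 8.41 FPKM in Dll4+/- lungs, against 6.81, 9.34, 9.15 and 8.62 FPKM in Dll4+/+ lungs. Tgfbr2, the type II receptor, had 73.4, 44.7, 52.3 and 27.6 FPKM in Dll4+/- lungs, against 40.6, 43.9, 43.3 and 42.3 FPKM in Dll4+/+ lungs. The Dll4+/- libraries enclosed the Dll4+/+ libraries, which lay within 3.295 FPKM of each other, with Dll4+/- replicate 1 at the top and Dll4+/- replicate 4 at the bottom. Tgfbr3, the coreceptor betaglycan, had 29.7, 15.6, 16.1 and 13.6 FPKM in Dll4+/- lungs, against 11.6, 14.1, 15.2 and 15.3 FPKM in Dll4+/+ lungs. Dll4+/- replicate 1 was again above all others. The log2 fold changes were 0.13 ± 0.25 for Tgfbr2 and 0.34 ± 0.22 for Tgfbr3, and without Dll4+/- replicate 1 they were -0.0805 and 0.11. Without Dll4+/- replicate 4 Tgfbr2 lay at 0.38 and under an unadjusted p of 0.05 (unadjusted p = 0.0471, limma).

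BMP ligands did not move in one direction, with 3 of 5 tested log2 fold changes above 0, 2 below and 0 under an unadjusted p of 0.05. Among the 3, Bmp2 lay at 0.0038 and turned below 0 with a pseudocount of 0.1 (-0.0019) and with voom (-0.0078). Bmp4, which patterns the distal lung, had 25.8, 66.9, 52.1 and 65.4 FPKM in Dll4+/- lungs, against 51.98, 62.2, 60.2 and 59.6 FPKM in Dll4+/+ lungs. Dll4+/- replicate 1 was the lowest library, and Dll4+/- replicates 2 and 4 were the highest. Bmp6, which in mice is made by endothelial cells of the liver and acts on iron balance, had 45.7, 29.6, 30.3 and 16.5 FPKM in Dll4+/- lungs, against 16.5, 21.4, 25.9 and 26.4 FPKM in Dll4+/+ lungs. Here Dll4+/- replicate 1 was the highest library, and Dll4+/- replicate 4 the lowest. Bmp5 had 2.797, 10.5, 12.6 and 2.73 FPKM in Dll4+/- lungs, against 4.27, 10.5, 12.8 and 8.63 FPKM in Dll4+/+ lungs, low in Dll4+/- replicates 1 and 4 and in Dll4+/+ replicate 3. The log2 fold changes were -0.24 ± 0.27 for Bmp4, 0.36 ± 0.28 for Bmp6 and -0.47 ± 0.48 for Bmp5. Without Dll4+/- replicates 1 and 4 they were 0.017, 0.42 and 0.40. Bmp6 lay at 0.62 without Dll4+/- replicate 4 alone (unadjusted p = 0.0187, limma), at 0.14 without Dll4+/- replicate 1 and at 0.22 without Dll4+/+ replicate 3. Bmp3 also lay under an unadjusted p of 0.05 without Dll4+/- replicate 4, with a log2 fold change of 0.29, against 0.17 with all 8 libraries. Bmp2 and Bmp3 ranged from 4.26 to 8.49 FPKM over all libraries, and Bmp2 passed an unadjusted p of 0.05 without Dll4+/- replicates 1 and 4 (log2 fold change 0.32, unadjusted p = 0.0339, limma). Bmp7 was under the filter, at 0.302 to 0.871 FPKM.

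Bmp1 encodes a procollagen C-proteinase rather than a growth factor and belongs to the pathway by name and by its cleavage of chordin. It had 82.3, 87.4, 93.3 and 97.4 FPKM in Dll4+/- lungs, against 76.1, 88.3, 91.7 and 83.9 FPKM in Dll4+/+ lungs, and these ranges overlapped. The members include the activin beta subunits Inhbb and Inhba. Inhbb, the beta B subunit, had 3.41, 2.32, 4.92 and 5.69 FPKM in Dll4+/- lungs, against 2.77, 4.29, 5.11 and 4.98 FPKM in Dll4+/+ lungs, and Inhba, the beta A subunit, was under the filter with 0.335, 0.351, 0.475 and 0.312 FPKM in Dll4+/- lungs, against 0.172, 0.625, 0.713 and 0.309 FPKM in Dll4+/+ lungs. The genotypes overlapped for both subunits.

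The endothelial receptors were among the most abundant members. Acvrl1, which encodes ALK1, had 194, 104, 109 and 69.8 FPKM in Dll4+/- lungs, against 103, 99.2, 101 and 97.7 FPKM in Dll4+/+ lungs. The Dll4+/+ libraries lay within 5.11 FPKM of each other, and the Dll4+/- libraries ran from 69.8 FPKM in replicate 4 to 194 FPKM in replicate 1, so that the means were 119 ± 52.98 FPKM in Dll4+/- lungs and 100.3 ± 2.26 FPKM in Dll4+/+ lungs (± SD, 4 libraries each). Its log2 fold change was 0.15 ± 0.26, and it was -0.12 without Dll4+/- replicate 1 and 0.37 without Dll4+/- replicate 4. Eng, which encodes endoglin, had 129.5, 86.6, 98.7 and 86 FPKM in Dll4+/- lungs, against 104, 86.6, 103 and 89.1 FPKM in Dll4+/+ lungs. The same 2 libraries held the highest and the lowest value of Eng. As a percentage of the pan-endothelial sum, Acvrl1 was 10.8, 7.25, 6.72 and 6.18% in Dll4+/- lungs, against 6.21, 6.57, 6.62 and 6.37% in Dll4+/+ lungs (two-sided exact permutation p = 0.229). On that scale Dll4+/- replicates 1, 2 and 3 lay above every Dll4+/+ library, with replicate 1 furthest, and Dll4+/- replicate 4 lay just below them.

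Of 7 further BMP and activin receptors, 6 were tested, with log2 fold changes between -0.08 and 0.35 and 0 under an unadjusted p of 0.05. Bmpr2, the type II receptor mutated in heritable pulmonary arterial hypertension in people, had 25.8, 21.2, 22.99 and 13.95 FPKM in Dll4+/- lungs, against 20.4, 20.03, 21.8 and 22.2 FPKM in Dll4+/+ lungs. Only Dll4+/- replicate 4 was below the Dll4+/+ range, and only replicate 1 and replicate 3 were above it. Bmpr1a, the type I receptor ALK3, had 11.97, 17.5, 16.8 and 15.5 FPKM in Dll4+/- lungs, against 13.7, 16.97, 15.5 and 17.3 FPKM in Dll4+/+ lungs. Acvr1b, the activin type I receptor ALK4, had 27.5, 17.8, 17.4 and 20.8 FPKM in Dll4+/- lungs, against 11.5, 18.03, 18.05 and 17.2 FPKM in Dll4+/+ lungs. Its Dll4+/- replicate 1 was high and its Dll4+/+ replicate 3 low, and the log2 fold change was 0.35 ± 0.19. It was 0.21 without the first of these libraries, 0.20 without the second and 0.037 with library weights. Acvr1, Acvr2a and Acvr2b ranged from 1.65 to 14.6 FPKM, and Bmpr1b was under the filter at 0.482 to 1.24 FPKM.

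The receptor-regulated SMADs carry the signal to the nucleus with SMAD4. For the 6 receptor-regulated and common SMADs the log2 fold changes lay between -0.16 for Smad5 and 0.10 for Smad2, with 5 below 0 (Smad1 turns above 0 with median ratio scaling, at 0.02), 1 above and 0 under an unadjusted p of 0.05. Smad5, a BMP SMAD and the most abundant of them, had 21.7, 32.1, 29.98 and 27.95 FPKM in Dll4+/- lungs, against 28.5, 33.3, 31.6 and 31.01 FPKM in Dll4+/+ lungs. Smad4, the common partner, had 27.7, 21.9, 23.96 and 17.1 FPKM in Dll4+/- lungs, against 22.9, 22.03, 24.9 and 22.02 FPKM in Dll4+/+ lungs. Smad3, a TGF-beta SMAD, had 10.8, 15.8, 15.4 and 18.95 FPKM in Dll4+/- lungs, against 12.4, 16.4, 16.3 and 17.2 FPKM in Dll4+/+ lungs. Without Dll4+/- replicate 1 the log2 fold change of Smad5 was -0.051. In each of the 3 the Dll4+/- libraries spread wider than the Dll4+/+ libraries and overlapped with them. Smad1, Smad2 and Smad9 ranged from 1.99 to 15.1 FPKM.

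The inhibitory SMADs, feedback targets that block receptor signalling, had log2 fold changes above 0 in both cases and 0 under an unadjusted p of 0.05. Smad6, which acts mainly on BMP signals, had 78.6, 50.5, 72.8 and 42.04 FPKM in Dll4+/- lungs, against 45.5, 51.1, 65.4 and 61.96 FPKM in Dll4+/+ lungs. Smad7, which blocks TGF-beta and BMP receptors alike, had 40.4, 20.3, 23.5 and 16.5 FPKM in Dll4+/- lungs, against 19.99, 18.1, 22.1 and 20.5 FPKM in Dll4+/+ lungs. Dll4+/- replicate 1 was the highest and Dll4+/- replicate 4 the lowest library for both genes. The log2 fold change of Smad7 was 0.23 ± 0.23, and it was -0.016 without Dll4+/- replicate 1, where Smad6 lay at -0.045.

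**Figure D3:**
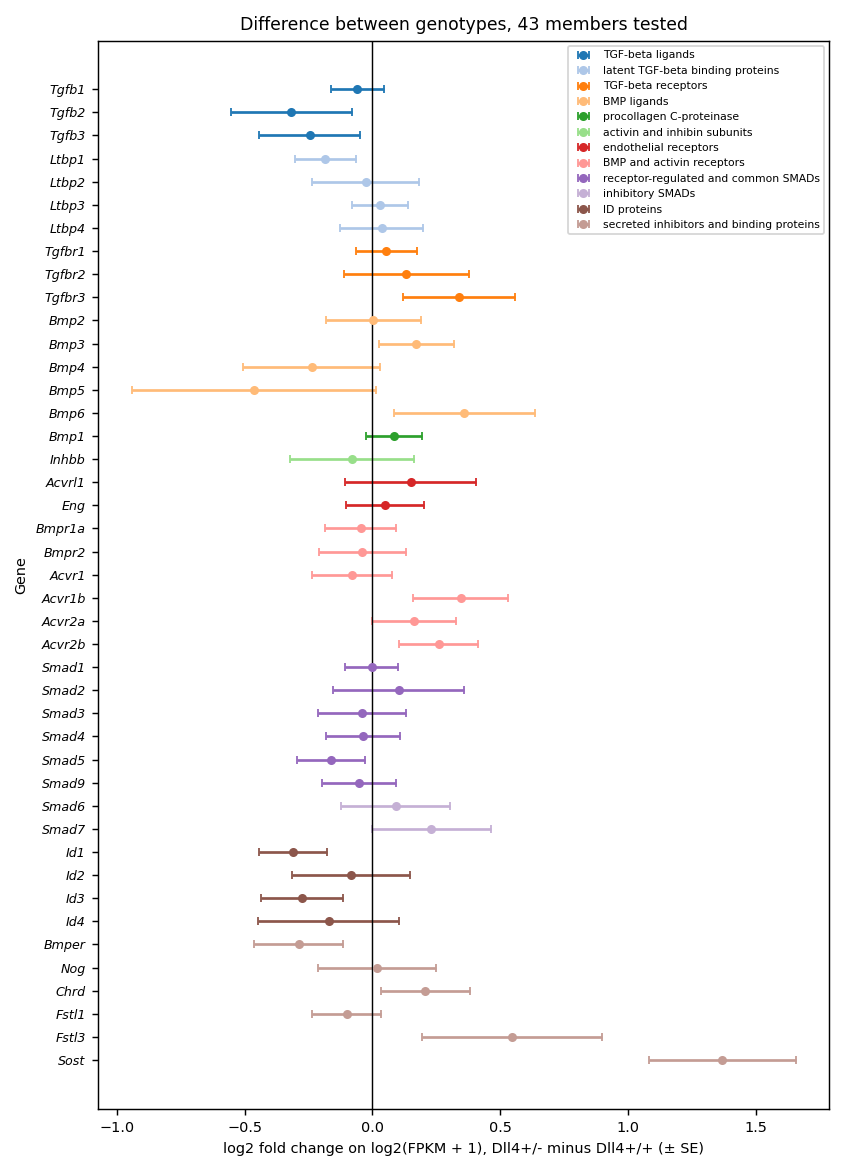
Log2 fold changes of the 43 members tested, Dll4+/- minus Dll4+/+ on log2(FPKM + 1), with bars for the SE and colours for the role. Sost at 1.37 is the only point beyond 1, and for 27 of the 43 the value is smaller than its SE.

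The spread among Dll4+/- libraries was larger than among Dll4+/+ libraries for 34 of 43 members (79.1%), against 73.5% of all genes tested. Dll4+/- replicate 1 was the highest library for 14 members and the lowest for 16, together 69.8% of those tested, against 56.2% of all genes. Dll4+/- replicate 4 was the highest for 9 and the lowest for 14, together 53.5%, against 37.1% of all genes. Dll4+/+ replicate 3 was the highest for 4 and the lowest for 10, together 32.6%, against 44.8% of all genes. Dll4+/- replicate 1 lay more than 1.5 times above all 7 others for Acvrl1, Bmp6, Fstl3, Smad7 and Tgfbr3, and more than 1.5 times below them for Bmp4, Id2, Id4 and Tgfb2. Dll4+/- replicate 4 lay more than 1.5 times above the others for Nog and Sost. Acvrl1, Eng, Smad6 and Tgfbr2 were highest in Dll4+/- replicate 1, where the pan-endothelial sum was highest, and all 4 were lowest in Dll4+/- replicate 4, where that sum was lowest. Id1 and Id3 did not follow this pattern, and Bmper followed it only in Dll4+/- replicate 4, where it was lowest (11.3 FPKM). In Dll4+/- replicate 1, Id3 was at its lowest (199 FPKM), and Id1 (161 FPKM) and Bmper (14.4 FPKM) lay below every Dll4+/+ library. The part of endothelial content in these levels was not tested. Without Dll4+/- replicates 1 and 4, 30 of the 43 log2 fold changes kept their sign and 13 changed it, and 3 members lay under an unadjusted p of 0.05 (limma), Sost, Id1 and Bmp2. These make 6.98% of 43, against 3.84% of all genes tested in that fit.

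**Figure D4:**
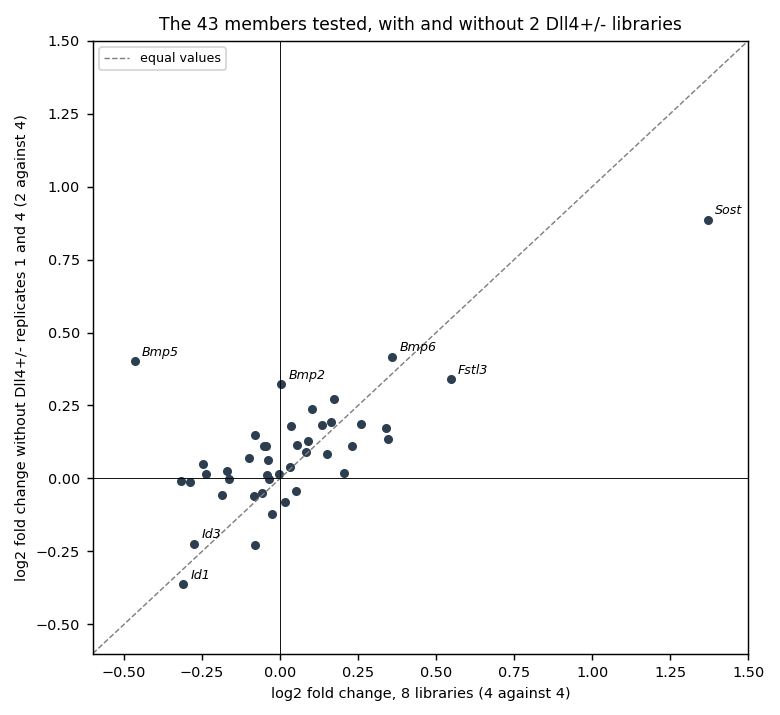
Log2 fold change of each tested member with all 8 libraries (x axis) and without Dll4+/- replicates 1 and 4 (y axis), both on log2(FPKM + 1). Points on the dashed line have equal values. Sost stays highest at 1.37 and 0.89, Id1 lies at -0.31 and -0.36, and Bmp5 at -0.47 and 0.40.

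Other genes of the pathway were counted from lists of further ligands, receptors, inhibitors, latency proteins and SMAD cofactors. Of 80 such genes that the table lists, 50 were tested, and 2 lay under an unadjusted p of 0.05 (limma), both lower in Dll4+/- lungs, while 0 were higher. That is 4% of the 50, against 3.36% of all genes tested in either direction. Their log2 fold changes were above 0 in 31 cases and below in 19, with a median of 0.05. Fmod encodes fibromodulin, a matrix proteoglycan that binds TGF-beta. It had 10.2, 11.6, 10.7 and 10.8 FPKM in Dll4+/- lungs, against 16.4, 12.1, 13.7 and 15.5 FPKM in Dll4+/+ lungs, with no overlap and a log2 fold change of -0.38 ± 0.12 (unadjusted p = 0.0102, adjusted p = 0.811). Fkbp1a encodes FKBP12, which holds type I receptors inactive. It had 224, 317, 296 and 218 FPKM in Dll4+/- lungs, against 367, 327, 320.3 and 319 FPKM in Dll4+/+ lungs, also with no overlap and with a log2 fold change of -0.35 ± 0.16 (unadjusted p = 0.0487, adjusted p = 0.811). Bgn, a proteoglycan of the same family as Fmod, was the most abundant latency gene and was highest in Dll4+/- replicate 1, at 446 FPKM, against 230.4 to 321 FPKM in the other 3 Dll4+/- libraries and 269 to 298 FPKM in Dll4+/+ lungs.

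Genes induced by TGF-beta, 18 in all, had 9 log2 fold changes on each side of 0 and 0 under an unadjusted p of 0.05. Tgfbi, which encodes a matrix protein named for its induction by TGF-beta, had 233, 356, 332 and 365 FPKM in Dll4+/- lungs, against 376, 399.9, 378 and 373 FPKM in Dll4+/+ lungs. The groups did not overlap, Dll4+/- replicate 1 was the lowest library, and the unadjusted p was 0.133 (limma). Tgfbi falls outside the rule by which genes of other lists are named, and the more abundant Col3a1 and Tagln had groups that overlapped. Groups without overlap in the lower direction made 5.56% of the 18, the share of a single gene, against 1.69% of all genes tested. Eln, which encodes elastin, had 10543, 1557, 2696 and 2407 FPKM in Dll4+/- lungs, against 1348, 1911, 2022 and 2042 FPKM in Dll4+/+ lungs, and Dll4+/- replicate 1 was several times above every other library. Of 12 BMP-induced endothelial genes, 2 lay under an unadjusted p of 0.05, both lower, the member Id1 and Gja5. That is 16.7% of the 12, where a single gene makes 8.33%, against 1.91% of all genes tested that were lower and 3.36% in either direction. The list was chosen with earlier results of these data known and shares genes with the members, so its share tests nothing. Of the 23 targets in both lists that are not members, 1 lay under that p (4.35%). Id1 was already counted among the members. Gja5 encodes connexin 40 of arterial endothelium and is also known as a Notch target. It had 23.1, 30.3, 29.7 and 24.4 FPKM in Dll4+/- lungs, against 36.4, 37.7, 38.1 and 39.6 FPKM in Dll4+/+ lungs, with no overlap and a log2 fold change of -0.49 ± 0.12 (limma, unadjusted p = 0.00199, adjusted p = 0.811). Tmem100, an ALK1 target in endothelial cells, had 135, 134, 175 and 58.5 FPKM in Dll4+/- lungs, against 149, 159, 183 and 165 FPKM in Dll4+/+ lungs. Dll4+/- replicates 1, 2 and 4 lay below every Dll4+/+ library, with replicate 4, the library with the lowest pan-endothelial sum, lowest, and Dll4+/- replicate 3 lay within the Dll4+/+ range.

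Chromosome 2, which carries Dll4, also carries 7 of the 48 members. Grem1 is nearest, 5.57 Mb from Dll4, followed by Bmp2 at 14.2 Mb and Id1 at 33.4 Mb, with Bmp7, Acvr1, Acvr2a and Eng between 53.5 and 86.6 Mb away (GENCODE M21, GRCm38). Of the 5 that were tested, Id1 alone lay under an unadjusted p of 0.05 (limma), and the other 4 had unadjusted p above it. A single gene makes 20% of 5, against 3.36% of all genes tested in either direction, so 1 call cannot be read as a result about the chromosome. Reads of a gene and of an overlapping gene cannot be told apart where strand was not used in counting, and 24 of the 48 members overlap another annotated gene, Sost and Id1 not among them.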

How the data were processed

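Poly-A NEBNext Ultra libraries of P6 lung RNA were sequenced from both ends (NovaSeq). CASAVA, STAR and build GRCm38.p4 are named, without versions, in the submitters' processing notes, and whether strand was used in counting is not stated there. The authors deposited 1 table of FPKM values. Of 10 samples, 8 have a column, and Dll4+/+ replicates 1 and 2 were not analysed here, so the planned comparison of 4 with 6 libraries was made with 4 and 4. Group means, fold changes and p-values of the authors in the same table were not used. In 239 genes an FPKM of 0.005 stood in for 0 and was set back. Genes that reached 1 FPKM in 4 or more libraries were tested with limma 3.58.1 (R 4.3.3, empirical Bayes with trend) on log2(FPKM + 1), and single values by exact permutation tests. Log2 fold changes are Dll4+/- minus Dll4+/+. Fragment numbers were recovered from FPKM steps (100% of tested genes whole within 0.01), mostly at a fitted gene length, so a gene's counts may all be wrong by the same factor. For a transcript of 2000 bases 3 fragments were worth 0.0654 to 0.0872 FPKM. The labels give each library its own sex and number but no litter, so p-values measure the spread between these libraries. The fit and the recovery were tested on simulated data.

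Members with an unadjusted p under 0.05, with groups that do not overlap, or among the 3 most abundant of their role are given library by library. Of other lists, genes under that p and at most 3 of the most abundant are given, and Tgfbi is named outside this rule. Log2 fold changes are printed singly for members given library by library where they reach 0.1 in size, and for Fstl3. Those of some other members appear as ends of a range or beside an alternative. The members and all lists were chosen with earlier results of these data known. Promoter sequences are from RefSeq (GRCm38.p6, 35 of 48 members matched). Alternatives were a pseudocount of 0.1, no filter, median ratio scaling, library weights, voom on recovered fragments and the labelled sex as a covariate. Others were a replicate block on replicates 3 and 4 of each genotype alone, each library left out, and Dll4+/- replicates 1 and 4 left out together.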

Additional observations from a re-analysis of the deposited data

Results flagged for a closer look

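Within each genotype, the highest and the lowest of the 4 libraries were compared with the nearest of the others, for 48 members in 2 genotypes. Of 96 such groups 7 held a library set far apart from the other 3, and chance flags about 1 in 20 groups. In Dll4+/- lungs, replicate 1 stood apart at 8.20 FPKM for Fst and at 29.7 FPKM for Tgfbr3. In Dll4+/+ lungs, replicate 3 stood apart in 4 members, at 217 FPKM for Id1 on the high side and at 27.8 FPKM for Tgfb3, 75.5 FPKM for Ltbp3 and 11.55 FPKM for Acvr1b on the low side. Replicate 4 of the Dll4+/+ lungs stood apart for Chrd, at 2.05 FPKM. The cause was not tested.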

How the results depend on the processing

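After adjustment 3 genes passed with library weights, 18 with the replicate block (replicates 3 and 4 of each genotype alone) and 0 under each other alternative. Members under an unadjusted p of 0.05 numbered 2 (4.65% of 43, against 3.36% of all genes). They numbered 1 with median ratio scaling (2.33%, against 3.34%) and 1 with the replicate block (2.33%, against 3.64%). With library weights they numbered 3 (6.98%, against 5.69%), where Ltbp2, at -0.31 against -0.026, joined Id1 and Sost. Without Dll4+/- replicates 1 and 4 they also numbered 3 (6.98%, against 3.84%). Leaving out 1 library gave 1 to 4 (2.33 to 9.30%, against 1.69 to 7.03%). Members whose groups do not overlap numbered 2 (4.65% of 43, against 3.12% of all genes), but 1 with median ratio scaling (2.33%, against 3.30%), 2 to 7 on leaving out 1 library (4.65 to 16.3%, against 4.38 to 9.16%) and 9 without Dll4+/- replicates 1 and 4 (20.9%, against 17.99%), where fewer libraries are compared. The cause was not tested. Replicate numbers 3 and 4 occur in both genotypes. The correlations of deviations between same-numbered libraries were -0.228 and -0.056, within the -0.262 to 0.211 of the other pairs. Whether same-numbered libraries share a litter cannot be told from so few pairs, and the labels give no litter. The block fit used replicates 3 and 4 of each genotype alone, and Dll4+/- replicate 1 was among the libraries left out. With this block Sost had a log2 fold change of 1.78 and an adjusted p of 0.0289 (limma), and the sign turned for Tgfb2 (0.034), Tgfbr2 (-0.15), Bmp4 (0.037) and Acvrl1 (-0.21). Without Dll4+/- replicates 1 and 4 it turned for Tgfb3 (0.050), Bmp4 (0.017), Bmp5 (0.40) and Fstl1 (0.069). Ranges on leaving out 1 library that crossed 0 were -0.0805 to 0.38 for Tgfbr2, -0.38 to 0.065 for Bmp4, -0.12 to 0.37 for Acvrl1 and -0.016 to 0.40 for Smad7. Of the 17 log2 fold changes selected by the rule of 0.1 in size, Fstl3 included, 9 kept their sign in all 16 alternatives, as did 15 of all 43 tested. Sost lay between 0.89 and 2.28. With 4 libraries a genotype, and 13610 genes adjusted together, differences near the SE could not be shown.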
